A study of Homo sapiens with 6 samples.

Results

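The 48 genes described here encode the subunits, assembly chaperones, activators and inhibitor of the human proteasome. They were chosen by symbol and comprise PSMA1 to PSMA8, PSMB1 to PSMB11, PSMC1 to PSMC6, PSMD1 to PSMD14, PSME1 to PSME4, PSMF1 and PSMG1 to PSMG4. All 48 were present among the 35410 genes of the deposited table. They were measured by MACE-Seq, a method that reads transcripts at their 3′ ends, with 3 biological replicates for each of the lines SEM::mock and SEM::EGR3. SEM is an established proB leukemia cell line with a KMT2A::AFF1 fusion. SEM::mock carries an empty vector and SEM::EGR3 a vector for the transcription factor EGR3, and both lines received 1 µg/mL doxycycline for 48 h before RNA extraction. Each group is thus a single line, no uninduced library was analysed here, and whether a line is 1 clone is not given in the sources used here. The p-values measure the spread between replicates of these lines, and for bulk RNA fewer cells of a type and less RNA per cell cannot be told apart.

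The proteasome degrades proteins that carry ubiquitin. Its core particle is a barrel of alpha rings, which gate the entrance, and beta rings, which hold the proteolytic sites. The regulatory particle docks on the core: ATPases of its base unfold the substrate, other base subunits bind ubiquitin, and the lid removes the ubiquitin chain. In lymphoid cells and under interferon, the catalytic beta subunits PSMB6, PSMB7 and PSMB5 can be replaced by PSMB9, PSMB10 and PSMB8. The resulting immunoproteasome favours peptides that fit MHC class I molecules, and the activator made of PSME1 and PSME2 opens the core in place of the regulatory particle.

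Counts of listed genes summed to 5286115 to 6181388 in SEM::mock and to 7293092 to 15106018 in SEM::EGR3, so that low counts were less precise in SEM::mock. EGR3, the targeted gene, was read 8, 10 and 6 times in SEM::mock but 9768, 4952 and 5557 times in SEM::EGR3. The labelled proB identity was checked with marker genes. Of 11 proB markers, 8 had at most 3 counts in each SEM::mock library, among them PAX5, EBF1, CD79A and CD22, against 2 (DNTT and RAG2) in SEM::EGR3. Their summed level was 2.64 to 5.86 CPM (counts in each 1000000 of a library, after scaling with TMM factors) in SEM::mock and 495 to 522 CPM in SEM::EGR3. Of 4 targets of KMT2A fusions, HOXA7 and HOXA9 had at most 3 counts in each SEM::mock library, and the summed level of the 4 was 20.7 to 23.1 CPM against 247 to 269 CPM. The 12 erythroid markers summed to 4880 to 5180 CPM in SEM::mock and 6110 to 6360 CPM in SEM::EGR3, with HBE1 at most at 3 counts in each library. T cell markers summed to 59.1 to 64.6 CPM and 10.7 to 12 CPM, with CD8A at most at 3 counts in each library of both lines. CD3D and CD3E were lower in SEM::EGR3, while CD4, with at most 3 counts in each SEM::mock library, was higher. The 5 myeloid markers in the table summed to 160 to 177 CPM and 168 to 173 CPM, with MPO, CD14 and CSF1R at most at 3 counts in each SEM::mock library. These similar sums hold opposite changes. LYZ had means of 154 CPM in SEM::mock and 42.6 CPM in SEM::EGR3, and CEBPA 12.35 and 126 CPM. Fibroblast and epithelial markers summed to 51.9 to 55.9 CPM and 79.8 to 81.9 CPM, with COL3A1 and KRT5 at most at 3 counts in each library. Of these, COL1A1 and COL1A2 were higher and EPCAM was lower in SEM::EGR3. The defining proB markers were thus mostly at the detection limit in SEM::mock, against its label. The summed erythroid level goes against the proB label in both lines and was higher in SEM::EGR3. Of the tested erythroid markers, HBA1, HBA2 and HBZ were higher in SEM::EGR3 and the others were lower. For each proteasome gene the presence of EGR3 and other differences between the lines cannot be told apart.

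Most proteasome genes were lower in SEM::EGR3, and by small amounts. Of the 48 genes, 43 had enough counts for edgeR's quasi-likelihood test, of which 25 were lower, 7 were higher and 11 were not called at an adjusted p-value under 0.05. The lower members made up 58.1% of those tested, beside 32% of all 15465 tested genes, and the higher members 16.3%, beside 36.5%. The median log2 fold change of the 43 was -0.165, beside 0.0304 for all tested genes, of which the quartiles were -0.39 and 0.573. In absolute terms the members' median was 0.251, beside 0.465 for all genes and 0.364 for the 10136 tested genes with at least 10 CPM on average. PSMB9 was the only member of the 43 that was called with a change of 2-fold or more, while 25.2% of all tested genes were. Libraries of both lines did not overlap for 31 of 43 members (72.1%), beside 70.1% of all tested genes. Summed over the 48 genes, the level was 8627, 8412 and 8483 CPM in SEM::mock and 7657, 7728 and 7763 CPM in SEM::EGR3. Each SEM::EGR3 library was thus below each SEM::mock library, and the ratio of the means was 0.907. Without TMM factors, 11 members were higher and 17 lower, PSMB3, PSMB7, PSMD6 and PSME2 being added to the higher ones, and the members' median was -0.0893. Calls of 10 members were lost under at least 1 alternative, namely the higher PSMB8 and PSMG2 and the lower PSMA3, PSMA4, PSMB4, PSMB5, PSMD3, PSMD4, PSMD9 and PSMD10.

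**Figure D1:**
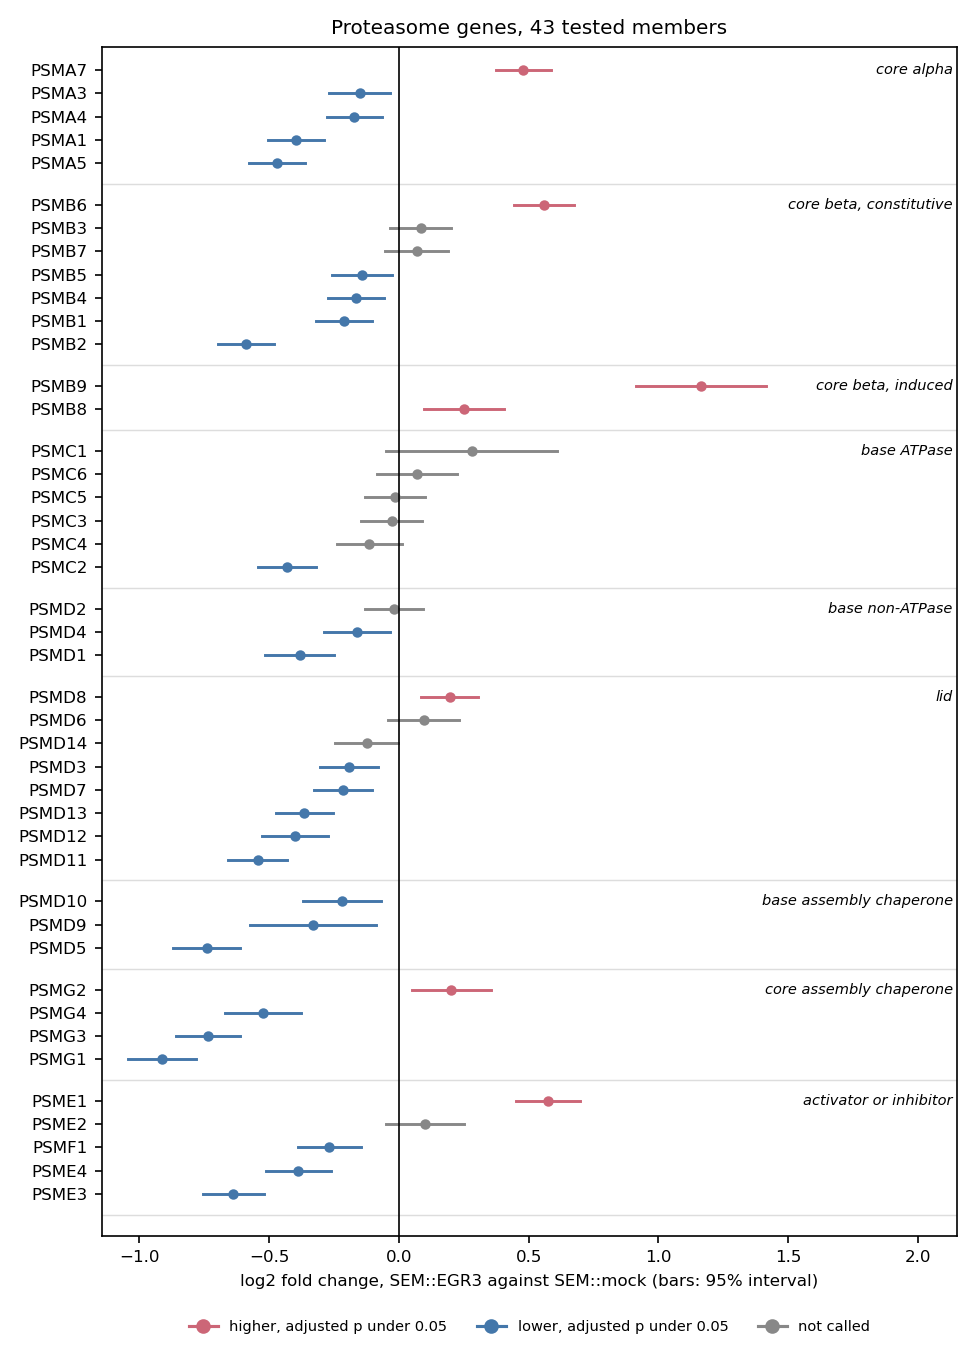
Fitted log2 fold change of the 43 tested proteasome genes on the x axis (SEM::EGR3 against SEM::mock, 3 libraries each), grouped by place in the complex. Points are estimates, bars 95% intervals and colours the call of edgeR's test. PSMB9 at 1.16 stands at the right and PSMG1 at -0.91 at the left, and 25 of 43 genes are called lower.

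Promoter sequences from RefSeq (GRCh38.p14, windows from 250 bases before to 50 after the start) were found for 42 of 48 members, with several windows for 8 of them. Each was searched on both strands for 4 short motifs, and a gene was counted when any of its windows held a match. The EGR site GCGNGGGCG occurred in 5 of 42 members (11.9%), beside 11.2% of 27305 genes. The antioxidant-type site TGACNNNGC, bound by NFE2L1 and NFE2L2, occurred in 15 (35.7%), beside 16.1%. CCAAT, the box bound by NF-Y, occurred in 20 (47.6%), beside 39.7%. The interferon regulatory factor site GAAANNGAA occurred in 8 (19%), beside 9.86%. By call, the antioxidant-type site lay in 3 of the 5 higher, 8 of the 22 lower and 4 of the 10 not called members with a sequence. The interferon regulatory factor site lay in 2 of the higher (PSMB8 and PSME1), 4 of the lower and 1 of the not called members. The EGR site lay in PSMG1, PSMC3, PSMC4, PSMD14 and PSMA8, of which PSMG1 alone was called. These matches are letters in a window and were not tested for binding.

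Promoters are shown for the induced subunit PSMB9, for the activator PSME1 and for PSMG1, the member with the largest decrease. Each line gives the 250 bases before the start, 5′ to 3′ on the gene's strand, and capitals mark matches of the motifs that lie wholly within these bases.
PSMB9: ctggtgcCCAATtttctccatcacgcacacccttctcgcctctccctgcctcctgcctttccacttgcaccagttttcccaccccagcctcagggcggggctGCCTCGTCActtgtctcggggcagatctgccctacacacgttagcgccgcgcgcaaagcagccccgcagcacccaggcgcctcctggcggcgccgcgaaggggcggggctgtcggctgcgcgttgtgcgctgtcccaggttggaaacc
PSME1: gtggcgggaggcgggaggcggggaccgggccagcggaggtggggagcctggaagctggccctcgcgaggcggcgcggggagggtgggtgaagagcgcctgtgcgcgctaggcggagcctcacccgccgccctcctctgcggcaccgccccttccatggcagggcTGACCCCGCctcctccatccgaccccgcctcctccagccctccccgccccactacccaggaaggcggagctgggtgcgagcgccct
PSMG1: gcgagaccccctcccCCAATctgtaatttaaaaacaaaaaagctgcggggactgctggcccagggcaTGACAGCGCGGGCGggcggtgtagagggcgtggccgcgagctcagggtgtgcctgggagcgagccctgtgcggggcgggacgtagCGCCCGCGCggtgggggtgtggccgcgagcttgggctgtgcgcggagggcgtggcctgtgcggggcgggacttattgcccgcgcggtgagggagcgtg
The PSMB9 sequence (chr6:32853942-32854191, plus strand) holds a CCAAT box and an antioxidant-type site on the opposite strand, 243 and 148 bases before the start. This RefSeq start lies inside the PSMB9 gene as GENCODE annotates it, which begins further upstream. The PSME1 sequence (chr14:24135944-24136193, plus strand) holds an antioxidant-type site 86 bases before the start. Its searched window also holds an interferon regulatory factor site on the opposite strand at base 7 after the start, beyond the bases shown. The PSMG1 sequence (chr21:39183452-39183701, minus strand) holds a CCAAT box 235 bases before the start. Its antioxidant-type site at 183 bases overlaps an EGR site at 178 bases, and a second EGR site lies on the opposite strand at 98 bases.

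PSMB8, PSMB9 and PSMB10 are the induced beta subunits, and PSMB11 was grouped with them. Of these 4, PSMB9 and PSMB8 were tested and both were called higher in SEM::EGR3. PSMB9 had the largest increase of all tested members. PSMB9 (ENSG00000240065, GRCh38 chromosome 6, 32844136 to 32859585, plus strand) replaces PSMB6 and changes what the core cuts after. Its level was 13.2, 10.7 and 12.3 CPM in SEM::mock and 29, 23.3 and 27.4 CPM in SEM::EGR3. Each SEM::EGR3 library was thus well above each SEM::mock library. The fold was 2.24 (log2 fold change 1.16, standard error 0.12, adjusted p = 5.81e-09). PSMB8 (chromosome 6, 32840717 to 32844703, minus strand), which replaces the chymotrypsin-like PSMB5, had 49.5, 42.2 and 49.4 CPM in SEM::mock. In SEM::EGR3 it had 55.2, 56.3 and 56.1 CPM, all above SEM::mock but with a smaller change (log2 fold change 0.25, standard error 0.07, adjusted p = 0.00461). Without SEM::mock replicate 2, the lowest library, its log2 fold change was 0.16 and the call was lost (adjusted p = 0.08). PSMB10, which replaces PSMB7, had no count in the control line and was read 4, 0 and 0 times in SEM::EGR3, and PSMB11, the subunit of the thymus, had at most 1 count in a library. Both were at or near the detection limit, and no fold is given for them.

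By the GENCODE annotation, PSMB8 and PSMB9 overlap at their starts. TAP1, which encodes a subunit of the peptide transporter, lies on the opposite strand within the annotated PSMB9 gene and shares none of its exon bases. Its annotated start, at 32853978, lies inside the PSMB9 promoter sequence shown above, so that this sequence is not of PSMB9 alone. TAP1 (chromosome 6, 32845209 to 32853978) was not among the genes to be named by rule and was chosen after its values were seen. It had 12.8, 17.5 and 15.6 CPM in SEM::mock and 8.67, 9.39 and 10.7 CPM in SEM::EGR3, so that it was lower (log2 fold change -0.70, standard error 0.14, adjusted p = 0.00012) beside a higher PSMB9. The noncoding gene PSMB8-AS1 lies on the strand of PSMB9 and shares 5.7% of the annotated exon bases of PSMB9. It had 3.34, 2.84 and 2.54 CPM in SEM::mock and 9.5, 13.6 and 12 CPM in SEM::EGR3. Whether counting used strand is not given in the sources used here, and the part of the overlap in the PSMB8 and PSMB9 counts was not tested.

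The constitutive catalytic subunits did not move together. PSMB6, the subunit with caspase-like activity that PSMB9 replaces, had 207, 192 and 188 CPM in SEM::mock. In SEM::EGR3 it rose to 292, 297 and 275 CPM with no overlap (log2 fold change 0.56, standard error 0.06, adjusted p = 3.16e-09). PSMB5 had 140, 149 and 151 CPM in SEM::mock and 130, 132 and 138 CPM in SEM::EGR3, and was called lower (log2 fold change -0.14, standard error 0.06, adjusted p = 0.0301). This call lay close to the threshold and was lost without SEM::mock replicate 2 (-0.14), SEM::mock replicate 3 (-0.14), SEM::EGR3 replicate 1 (-0.12) or SEM::EGR3 replicate 2 (-0.13). It was also lost under changes of method, among them DESeq2 (-0.14), no normalization factors (-0.07) and upper-quartile normalization (-0.13). PSMB7, with trypsin-like activity, had 384, 345 and 352 CPM in SEM::mock and 361, 410 and 363 CPM in SEM::EGR3. Its libraries overlapped, and the 95% interval of its log2 fold change ran from -0.05 to 0.19.

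**Figure D2:**
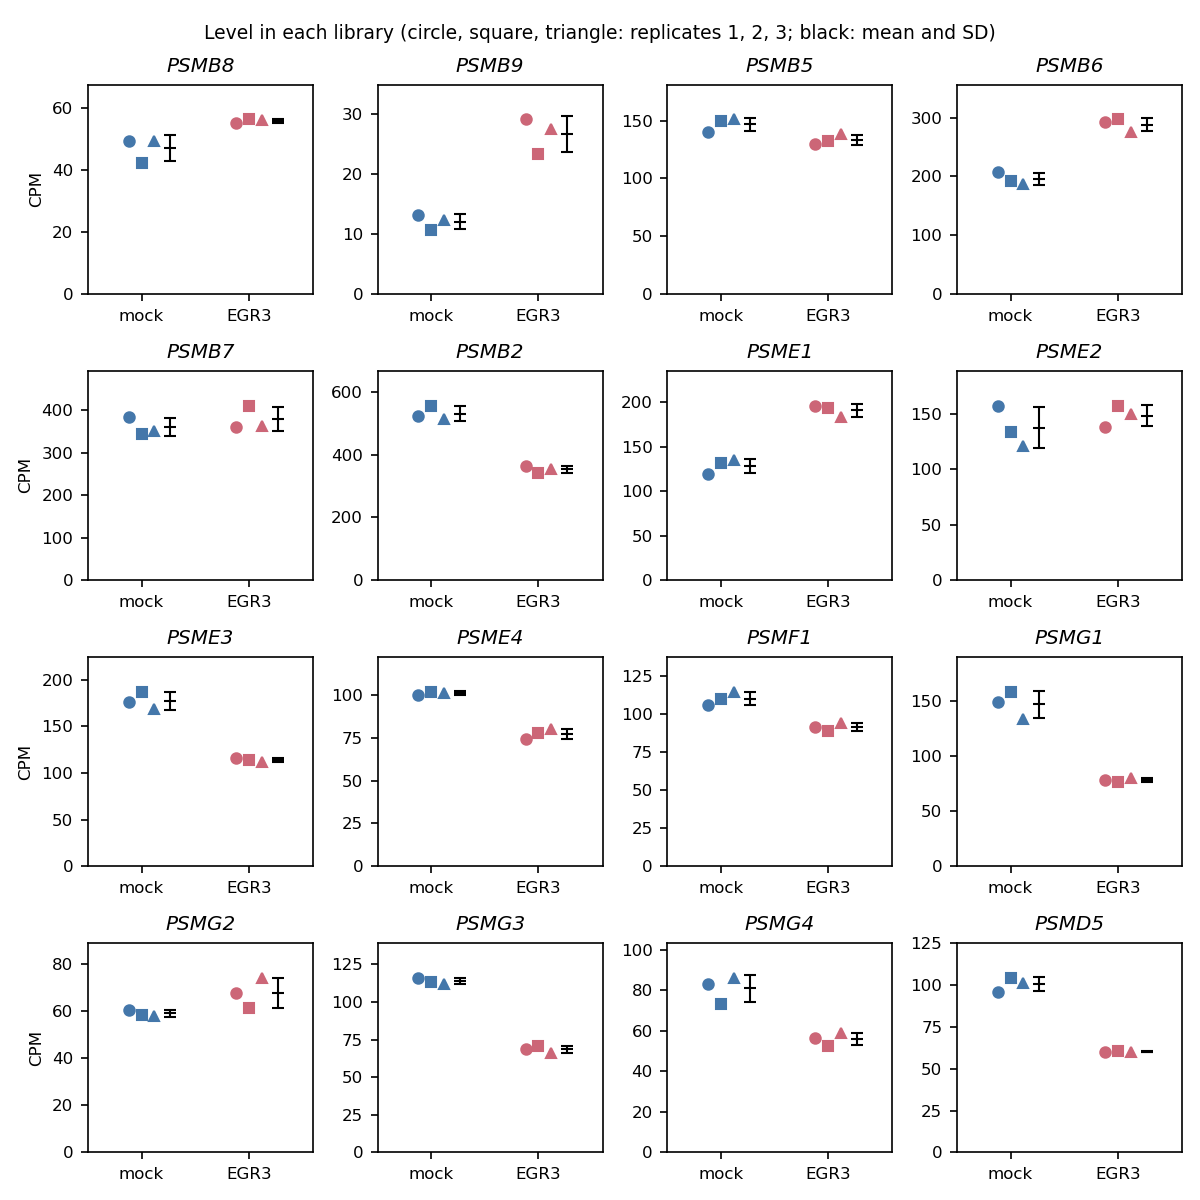
Level in CPM of 16 proteasome genes in each of the 3 SEM::mock (blue) and 3 SEM::EGR3 (red) libraries, with the y axis from 0 in each panel and black bars for mean and SD. PSMB9, PSMB6 and PSME1 separate upwards and PSMB2, PSME3, PSMG1, PSMG3 and PSMD5 downwards, while PSMB7 and PSME2 overlap.

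Within a library, the counts of an induced subunit can be set against those of the constitutive subunit it replaces, which needs no scaling between libraries. The log2 ratio of PSMB8 to PSMB5 was -1.50, -1.82 and -1.61 in SEM::mock and -1.23, -1.23 and -1.30 in SEM::EGR3. The difference of the means was 0.393, or 1.31-fold. The log2 ratio of PSMB9 to PSMB6 was -3.96, -4.15 and -3.92 in SEM::mock and -3.33, -3.67 and -3.33 in SEM::EGR3, a difference of 0.572, or 1.49-fold. Both ratios were higher in each SEM::EGR3 library than in each SEM::mock library. The two-sided exact permutation test gave p = 0.1 for both, the smallest value that 3 against 3 libraries allow, so that neither can pass a threshold of 0.05. Because PSMB6 rose as well, the ratio moved less than PSMB9 itself. A ratio of PSMB10 to PSMB7 could not be given, with PSMB10 at the detection limit.

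**Figure D3:**
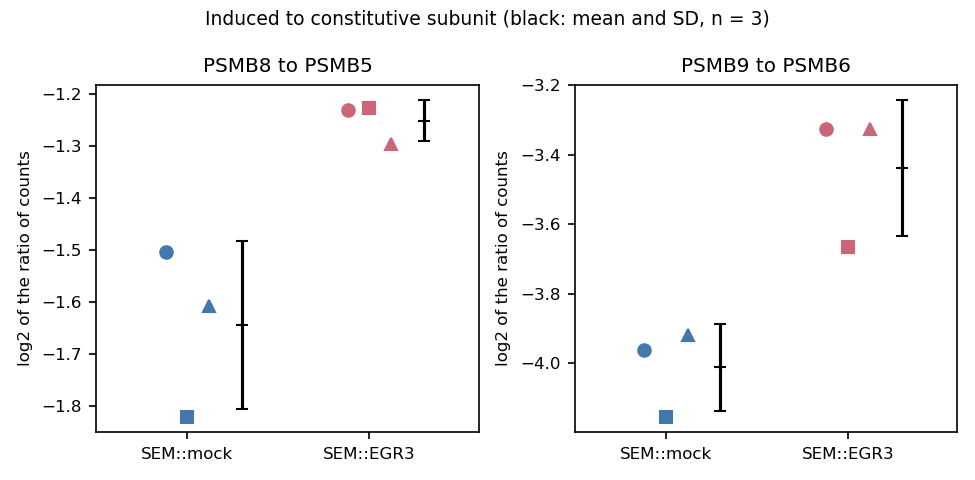
Log2 ratio of counts, induced over constitutive subunit, in each library of SEM::mock (blue) and SEM::EGR3 (red), with mean and SD in black (n = 3). The y axes do not start at 0. Both ratios lie higher in SEM::EGR3, by 0.393 for PSMB8 to PSMB5 and by 0.572 for PSMB9 to PSMB6.

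Of the noncatalytic beta subunits, PSMB1, PSMB2 and PSMB4 were lower and PSMB3 was not called. PSMB2 fell most. It had 522, 556 and 514 CPM in SEM::mock and 363, 341 and 354 CPM in SEM::EGR3, without overlap (log2 fold change -0.59, standard error 0.05, adjusted p = 3.06e-10). PSMB1 and PSMB4 had log2 fold changes of -0.21 and -0.16. For PSMB3 the interval ran from -0.03 to 0.20. The 7 constitutive beta subunits together had a median of -0.142.

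The alpha ring was lower in 4 of 5 tested subunits, beside 32% of all tested genes. PSMA7 was the exception, with 366, 379 and 365 CPM in SEM::mock and 519, 496 and 532 CPM in SEM::EGR3. It was higher in each SEM::EGR3 library (log2 fold change 0.48, standard error 0.05, adjusted p = 8.78e-09). PSMA5 showed the largest decrease of the ring, from 276, 281 and 276 CPM in SEM::mock to 198, 200 and 204 CPM in SEM::EGR3 (log2 fold change -0.47, standard error 0.05, adjusted p = 1.64e-08). PSMA1, PSMA4 and PSMA3 were lower by smaller amounts, with log2 fold changes of -0.40, -0.17 and -0.15. The call of PSMA3 was lost without SEM::mock replicate 3 (-0.14), SEM::EGR3 replicate 2 (-0.12) or SEM::EGR3 replicate 3 (-0.15). It was also lost under changes of method, among them DESeq2 (-0.15) and no normalization factors (-0.08). Neighbours in the same ring, whose proteins are present in equal number in each core, thus had transcripts that moved in opposite directions.

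The ATPases of the base had the lowest median absolute log2 fold change of the parts (0.0924), although their summed level in SEM::EGR3 was 0.927 of that in SEM::mock, below the 0.955 of the alpha ring. Of these 6 ATPases, which form the unfolding ring, PSMC2 alone was called, beside 36.5% of all tested genes called higher and 32% lower. PSMC2 had 190, 186 and 193 CPM in SEM::mock and 143, 138 and 140 CPM in SEM::EGR3, and was lower in each library (log2 fold change -0.43, standard error 0.05, adjusted p = 1.29e-07). The intervals of PSMC3 (-0.14 to 0.09) and PSMC5 (-0.13 to 0.10) were narrow around 0. Those of PSMC4 (-0.24 to 0.01) and PSMC6 (-0.08 to 0.22) were not much wider, and that of PSMC1, the member with the largest standard error (0.16), ran from -0.05 to 0.61. Without SEM::EGR3 replicate 1, PSMC4 was called lower (-0.17). Of the non-ATPase subunits, PSMD1, a scaffold to which ubiquitin receptors bind, had 209, 239 and 224 CPM in SEM::mock. In SEM::EGR3 it had 183, 154 and 177 CPM, all below SEM::mock (log2 fold change -0.38, standard error 0.07, adjusted p = 1.32e-05). The ubiquitin receptor PSMD4 was called lower (-0.16) and was the only called member whose libraries overlapped. Its call was lost without SEM::mock replicate 1 (-0.11), SEM::EGR3 replicate 1 (-0.14) or SEM::EGR3 replicate 3 (-0.16). It was also lost under changes of method, among them no normalization factors (-0.09). For PSMD2, the other scaffold, the interval ran from -0.13 to 0.09.

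In the lid, 5 of 8 subunits were lower (beside 32% of all tested genes), 1 was higher (beside 36.5%) and 2 were not called. PSMD11 fell most, from 276, 279 and 276 CPM in SEM::mock to 200, 177 and 191 CPM in SEM::EGR3 (log2 fold change -0.54, standard error 0.06, adjusted p = 4.28e-09). PSMD8 was higher, with 367, 357 and 360 CPM in SEM::mock and 387, 434 and 421 CPM in SEM::EGR3, a small difference with no overlap (log2 fold change 0.20, standard error 0.05, adjusted p = 0.00244). PSMD12, PSMD13, PSMD7 and PSMD3 were lower, with log2 fold changes of -0.40, -0.36, -0.22 and -0.19. PSMD14, the deubiquitinase of the lid, and PSMD6 were not called, with intervals from -0.24 to -0.004 and from -0.04 to 0.23. The interval of PSMD14 is not adjusted for the number of genes (adjusted p = 0.0612), and it was called lower without SEM::mock replicate 2 (-0.19). For PSMD7, the last 300 bases of the transcript lie wholly under AC009120.2 on the opposite strand, which had 2.93 to 3.84 CPM in SEM::mock and 6.38 to 7.11 CPM in SEM::EGR3.

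The 3 largest decreases among the members were those of PSMG1, PSMD5 and PSMG3, chaperones that assemble the particle and do not remain in it. The 4 core chaperones among the members work in pairs, PSMG1 with PSMG2 and PSMG3 with PSMG4, to build the alpha ring. PSMG1 (ENSG00000183527, chromosome 21, 39174769 to 39183851, minus strand) had 149, 158 and 133 CPM in SEM::mock and 78, 76.5 and 79.6 CPM in SEM::EGR3. The libraries of the lines were far apart, and the level was 1.88-fold lower (log2 fold change -0.91, standard error 0.06, adjusted p = 3.91e-12). Its partner PSMG2 had 60.5, 58.6 and 58 CPM in SEM::mock and 67.8, 61.2 and 74.2 CPM in SEM::EGR3, and was called higher by a small amount (log2 fold change 0.20, standard error 0.07, adjusted p = 0.0184). This call was lost without SEM::mock replicate 2 (0.18), SEM::mock replicate 3 (0.17) or SEM::EGR3 replicate 3 (0.14), and with DESeq2 (0.20).

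Both members of the other pair were lower. PSMG3 had 116, 113 and 112 CPM in SEM::mock and 68.9, 70.4 and 65.8 CPM in SEM::EGR3 (log2 fold change -0.74, standard error 0.06, adjusted p = 8.23e-11). PSMG4 had 83.2, 73.2 and 86.1 CPM in SEM::mock and 56.5, 52.7 and 58.7 CPM in SEM::EGR3 (log2 fold change -0.52, standard error 0.07, adjusted p = 5.3e-07). No library of one line reached the range of the other for either gene. Of the 3 chaperones of the base, which hold ATPases until the ring closes, PSMD5 fell most. It had 96.1, 104 and 101 CPM in SEM::mock and 59.9, 60.4 and 60.2 CPM in SEM::EGR3 (log2 fold change -0.74, standard error 0.06, adjusted p = 1.31e-10). PSMD9 and PSMD10 were lower with log2 fold changes of -0.33 and -0.22, and both calls were lost without SEM::EGR3 replicate 1 (-0.23 and -0.15). Both were also lost without normalization factors (-0.25 and -0.14), and that of PSMD9 with DESeq2 (-0.32). The last 300 bases of PSMD9 lie under an exon of WDR66 on the same strand, which had 12.5 to 15.2 CPM in SEM::mock and 7.38 to 8.14 CPM in SEM::EGR3. The part of this overlap in the PSMD9 counts was not tested. Summed, PSMG1 to PSMG4 had 400 ± 9.75 CPM in SEM::mock and 270 ± 8.78 CPM in SEM::EGR3 (SD, n = 3). The base chaperones had 190 ± 5.1 and 136 ± 5.83 CPM. These ratios, 0.675 and 0.718, were lower than those of the constitutive beta subunits (0.922), the ATPases (0.927) and the lid (0.888), a description without a test. The first sum leaves out POMP, a core chaperone that is no member, with means of 455 CPM in SEM::mock and 537 CPM in SEM::EGR3. The ratio of 0.675 thus describes PSMG1 to PSMG4 and not all core chaperones.

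The activators that dock in place of the regulatory particle split. PSME1 (ENSG00000092010, chromosome 14, 24136158 to 24138967, plus strand) had 119, 131 and 135 CPM in SEM::mock and 196, 193 and 183 CPM in SEM::EGR3. It was higher in each SEM::EGR3 library, by 1.49-fold (log2 fold change 0.57, standard error 0.06, adjusted p = 5.67e-09). PSME2, its partner in the same ring and its neighbour on the chromosome (24143362 to 24147570), had 157, 134 and 121 CPM in SEM::mock and 138, 157 and 150 CPM in SEM::EGR3. Its libraries overlapped and the interval of its log2 fold change ran from -0.05 to 0.25, below the estimate for PSME1. This interval covers only reads listed under PSME2, and 37.4% of the joint counts of gene and pseudogenes lay under its 6 pseudogenes. Of these, PSME2P6 alone was called by edgeR's test, and it was higher (log2 fold change 0.38, adjusted p = 0.00236). The part of such reads in the change of PSME2 was not tested. Without SEM::mock replicate 1, PSME2 was called higher (0.19). The 3′ end of PSME1 meets that of EMC9 on the opposite strand, and 3% of its last 300 bases are shared. EMC9 had 10.4, 10.8 and 11.5 CPM in SEM::mock and 29.6, 31.9 and 32.8 CPM in SEM::EGR3, and its part in the PSME1 counts was not tested.

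The nuclear activators and the inhibitor were lower. PSME3, whose ring activates the nuclear core without ATP, had 176, 187 and 168 CPM in SEM::mock and 116, 114 and 112 CPM in SEM::EGR3 (log2 fold change -0.64, standard error 0.06, adjusted p = 4.19e-10). PSME4, a large single-chain activator linked to the degradation of acetylated histones, had 100, 102 and 101 CPM in SEM::mock and 74.4, 77.5 and 80.2 CPM in SEM::EGR3 (log2 fold change -0.39, standard error 0.06, adjusted p = 4.2e-06). PSMF1, which blocks the core in vitro, had 106, 110 and 115 CPM in SEM::mock and 91.3, 89.2 and 94.1 CPM in SEM::EGR3 (log2 fold change -0.27, standard error 0.06, adjusted p = 0.000342). All 3 were below SEM::mock in each SEM::EGR3 library.

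The 5 members that were not tested had few or no counts in each library. PSMA8, the alpha subunit of the testis, and PSMB11 belong to particles of other tissues and had at most 1 count. PSMA2 and PSMA6 belong to each core particle, yet their counts were low. PSMA2 had 3, 6 and 1 in SEM::mock and 12, 5 and 6 in SEM::EGR3. PSMA6 had 6, 5 and 2 in SEM::mock and 40, 10 and 14 in SEM::EGR3. The 3 pseudogenes named after PSMA2 held 51, 59 and 62 counts in SEM::mock and 110, 63 and 62 in SEM::EGR3, or 92.5% of the joint counts of gene and pseudogenes. For PSMA6 and its 3 pseudogenes the share was 92.1%, with 95, 92 and 95 pseudogene counts in SEM::mock and 283, 165 and 173 in SEM::EGR3. More reads were thus listed under these pseudogenes than under the genes themselves. The last 300 bases of PSMA6 and of PSMB10 also lie wholly under another annotated gene of the same strand, AL121594.1 and AC040162.1. Of 48 members, 3 had at least 50% of these bases under a gene of the same strand, and 1 of these (PSMD9) was tested. Of the 43 with no such overlap, 40 were tested.

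For some tested members, many reads were also listed under pseudogenes. The pseudogene share was 48.7% for PSMC1 with 11 pseudogenes, 37.4% for PSME2 with 6 and 28.4% for PSMB3 with 2, all of which were among the members not called. For the other members with named pseudogenes in the table it was 1.62% or less. PSMC1 had 8.1, 7.67 and 6.84 CPM in SEM::mock and 9.44, 10.1 and 8.04 CPM in SEM::EGR3, and its last 300 bases lie under NRDE2 on the opposite strand. How reads that fit several places were treated is not given in the sources used here, and its part in these low counts was not tested. The levels of PSMA2, PSMA6, PSMB10 and PSMC1 are therefore given as uncertain. The intervals of PSME2 and PSMB3 hold only for reads listed under these genes.

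**Figure D4:**
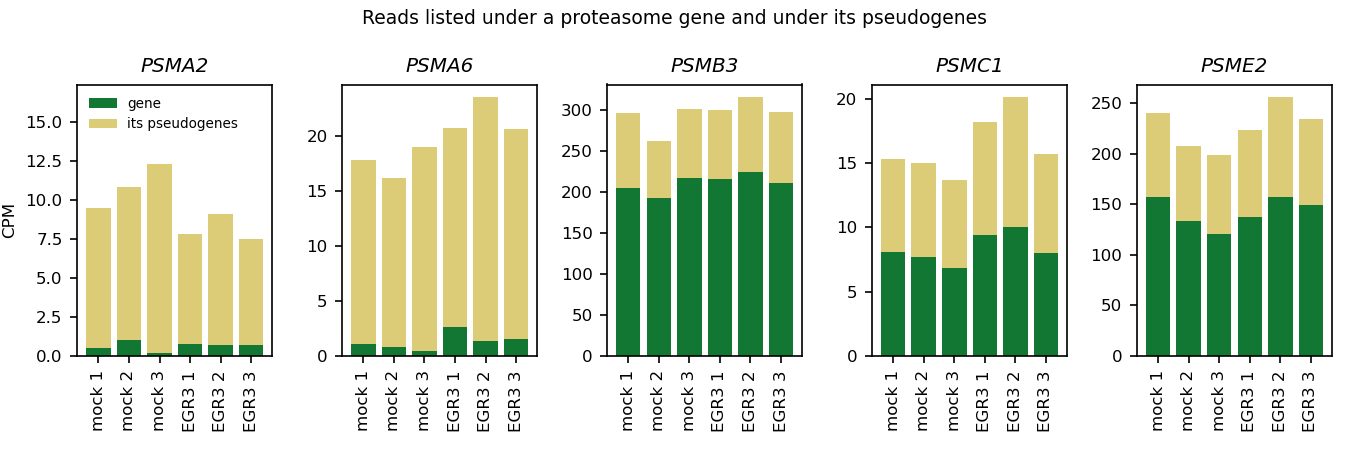
Stacked bars of CPM in each library for reads listed under 5 proteasome genes (green) and under their pseudogenes (yellow). The pseudogenes hold 92.5% of the counts for PSMA2, 92.1% for PSMA6, 48.7% for PSMC1, 37.4% for PSME2 and 28.4% for PSMB3 over all 6 libraries.

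A list of 41 further genes of the pathway covers partners of the particle, ubiquitin supply and handling, regulators of proteasome genes and class I peptide supply. All 41 were tested, of which 17 were higher, 13 lower and 11 not called, and the median log2 fold change was 0.04. The shares of 41.5% higher and 31.7% lower were near those of all tested genes (36.5% and 32%), as was the median (0.0304 for all). Among the partners, the core chaperone POMP, which matures the beta ring, had 464, 457 and 442 CPM in SEM::mock and 522, 537 and 550 CPM in SEM::EGR3 and was higher (log2 fold change 0.24, adjusted p = 0.000175). It thus moved opposite to the chaperones PSMG1, PSMG3 and PSMG4. ADRM1, a ubiquitin receptor on the base, had 151, 132 and 153 CPM in SEM::mock and 197, 211 and 207 CPM in SEM::EGR3 and was higher too (0.49, adjusted p = 1.18e-07). SEM1, the small lid subunit, was not called, with an interval from -0.17 to 0.05.

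Of 5 regulators of proteasome genes, 1 was higher (NGLY1, log2 fold change 0.22), 1 was lower (DDI2) and 3 were not called. Of all tested genes, 36.5% were higher and 32% lower. NGLY1, which removes sugars from NFE2L1, lies outside the naming rule, and its call was lost without SEM::mock replicate 2 (0.14) and with DESeq2 (0.22). NFE2L1, which raises proteasome genes when degradation is blocked, and the related NFE2L2 were not called, with intervals from -0.27 to 0.02 and from -0.31 to 0.01. Without SEM::mock replicate 2, NFE2L1 was called lower (-0.21), and without SEM::mock replicate 1, NFE2L2 was (-0.21). DDI2, the protease that activates the NFE2L1 protein, had 93.6, 92.6 and 101 CPM in SEM::mock and 56.5, 53 and 53.7 CPM in SEM::EGR3. It was lower in each library (log2 fold change -0.81, standard error 0.06, adjusted p = 5.56e-11). Of the 10 genes of ubiquitin handling at the particle, 5 were higher and 3 lower, beside 36.5% and 32% of all tested genes. UBQLN2, a shuttle that carries ubiquitinated proteins, had 14.6, 14.7 and 14.1 CPM in SEM::mock and 31.6, 29.3 and 29.7 CPM in SEM::EGR3 (log2 fold change 1.07, standard error 0.10, adjusted p = 1.26e-09).

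Class I genes held the largest changes of the list. HLA-B had 38, 41.5 and 42.6 CPM in SEM::mock and 124, 119 and 129 CPM in SEM::EGR3, and was 3.05-fold higher (adjusted p = 2.44e-16). HLA-C was 2.94-fold higher, also without overlap, and reads could be split among such near-identical genes. ERAP2, which trims peptides in the endoplasmic reticulum, rose from 7.57, 5.34 and 6.64 CPM to 33.7, 31.5 and 32.7 CPM (log2 fold change 2.33, adjusted p = 2.61e-14). NLRC5, the transactivator of class I genes and of PSMB9, had 2 counts in each SEM::mock library, which is within the detection limit of 3 counts. In SEM::EGR3 it had 6.42, 5.63 and 5.39 CPM, at least 10.8-fold higher than this limit (adjusted p = 3.99e-10). IRF1, a factor of the interferon response, was not called, with an interval from -0.07 to 0.31. TAP1, TAPBP, B2M and ERAP1 were lower, and the call of ERAP1 was lost with thinned counts. A higher HLA-B and HLA-C thus stood beside a lower B2M, their shared light chain (log2 fold change -0.29).

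**Figure D5:**
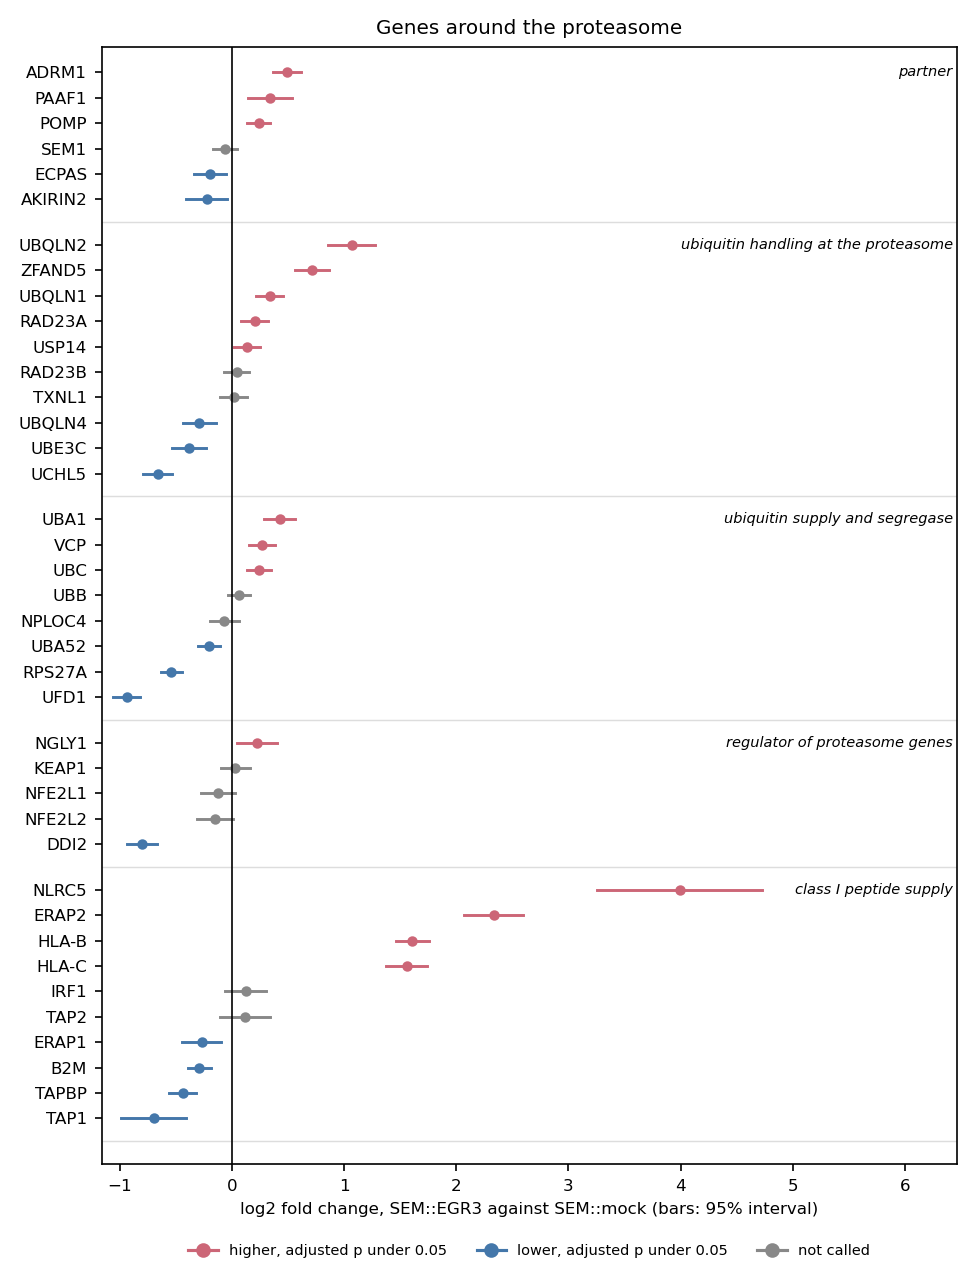
Fitted log2 fold change of the genes around the proteasome that are reported here (x axis, SEM::EGR3 against SEM::mock, 3 libraries each), with 95% intervals and the call by colour. NLRC5, ERAP2, HLA-B, HLA-C and UBQLN2 lie at 1 or more, and the estimate for NLRC5 depends on its 2 counts per SEM::mock library.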

How the data were processed

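RNA from 6 libraries labelled as SEM cells was analysed. The authors deposited whole-number read counts per gene and library from MACE-Seq, unnormalized, and per the labels and the submitters' processing notes made them with bcl2fastq, Bowtie2 and HTSeq on GRCh38. Versions, annotation release, strand setting and treatment of multiply mapping reads are not given in the sources used here. The 12 columns of scaled per-sample values and the columns of group means, fold changes and p-values of the authors' own comparison were not used. Groups and replicates were taken from the sample titles.

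Counts were filtered with filterByExpr, normalized with TMM and tested with glmQLFit and glmQLFTest of edgeR 4.0.16 in R 4.3.3, with 3 libraries a line and no further term. P-values were adjusted by Benjamini-Hochberg over 15465 genes. Intervals are 95% and come from the fitted standard error. Ratios used a pseudocount of 0.5 counts. At most 3 counts in each library of a line were treated as the detection limit, which covers counting error only. Within lines, replicates differed by more than counting noise (chi-square per degree of freedom 1.71 to 3.12). On simulated counts of 13927 genes for this comparison, 36 of 55 genes changed by 0.5, 58 of 61 by 1 and 63 of 63 by 2 on the log2 scale were recovered. Of the unchanged genes, 10 were called. Only 200 genes were given a change, while in the data 36.5% of tested genes were called higher and 32% lower. The simulation therefore does not show how scaling and calls behave with so many changes. Positions come from GENCODE release 29. The members, gene lists and tests were chosen with earlier results of these data known. Values in each library are given for the catalytic subunits, activators and inhibitor and, in each other group, for the called members with the largest increase and decrease and those that changed by 0.5 or more on the log2 scale. Related genes called at 1 or more, and preset regulators and partners, are named too. Single values of some listed genes and 1 searched motif are not reported here. Alternatives were DESeq2 1.42.0, other normalizations and filters, the replicate number as a block, thinned counts, leaving out each library, a minimum log2 fold change, another pseudocount and motif search on 1 strand.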

Additional observations from a re-analysis of the deposited data

How the results depend on the processing

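No called gene, count or ratio changed direction under the alternatives run. The sign of some genes that were not called and lay near 0, among them PSMC3, PSMC5, PSMD2, SEM1, NPLOC4, TXNL1 and KEAP1, turned under at least 1 of them. Of the 7 higher members 5, and of the 25 lower members 17, kept their call under each alternative other than the minimum change. The number of members called higher rose to 11 without normalization factors. With a minimum absolute log2 fold change of 1, 1 member was higher and 0 were lower by edgeR's test, and 6 related genes were higher and 0 lower. No member lay at a log2 fold change of -1 or below, and without this minimum DESeq2 called 6 members higher and 22 lower. Over the 6 fits that each omit 1 library, members called higher ranged from 6 to 9 and lower from 22 to 25, and related genes from 15 to 17 and from 12 to 13. The change of log2 ratio PSMB8 to PSMB5 ranged from 0.305 to 0.463 and the change of log2 ratio PSMB9 to PSMB6 from 0.501 to 0.685, and PSMB10 to PSMB7 gave no value at the detection limit. With the replicate number as a block, 7 members were higher and 22 lower, and 16 related genes were higher and 13 lower. Same-numbered libraries did not deviate together (correlations -0.12, -0.0766 and -0.038). This cannot show whether same-numbered libraries were prepared together, which the sample titles do not state. On the forward strand alone, the EGR site was found in 3 members in place of 5. The cause of these differences was not tested. Depth limits the genes with few counts, above all in SEM::mock.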
